A study of Mus musculus with 4 samples.

Results

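The enzymes of mitochondrial fatty acid beta-oxidation were followed in mouse embryonic stem cells with mutation of both Chd2 alleles and in wild-type cells. They comprise 10 of the 23309 genes in the authors' deposited table, matched by symbol: the carnitine palmitoyltransferases Cpt1a and Cpt2, the acyl-CoA dehydrogenases Acadvl, Acadl and Acadm, the trifunctional protein subunits Hadha and Hadhb, and the matrix enzymes Echs1, Hadh and Acaa2. All 10 were listed, and averaged over the genotypes each reached 1 FPKM. FPKM relates the fragments counted for a gene to its transcript length and to the mapped fragments of the library, so levels of different genes can be compared per length. The set was chosen by its place in the pathway with the deposited levels and fold changes of this contrast already known, so the values below describe its members and are not a test of the pathway.

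Chd2 encodes an ATP-dependent chromatin remodeler. The mutant cells carried the genotype Chd2 mut/mut, which the titles call Chd2KO, and the reference cells were wild type, both of strain 129/Ola at passages 10 to 20, grown on gelatin in serum with leukemia inhibitory factor. Each genotype had 2 libraries of total RNA, marked as lots, and the table gives 1 value per gene and genotype. Neither the nature of the mutation nor the number of clones is stated in the labels, and nothing says that the lots were separate cultures, so q-values may rest on technical spread only.

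Beta-oxidation shortens activated fatty acids in the mitochondrial matrix and releases acetyl-CoA for the citric acid cycle. Long-chain acyl groups enter as carnitine esters, and each round then runs through dehydrogenation, hydration, a second dehydrogenation and thiolytic cleavage. Separate enzymes serve long chains, where the trifunctional protein carries out the later steps, and medium or short chains. The pathway is best known from heart, liver, muscle and brown fat, and pluripotent cells also express it.

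Stem cell identity and the targeted gene were checked first. Chd2 was at 5.69 FPKM in mutant cells and 10.2 FPKM in wild-type cells, with a q-value of 0.0103 in the authors' deposited table. All 8 embryonic stem cell markers examined were at 16.7 FPKM or more in both genotypes, and their summed level was 6973 FPKM in mutant cells and 6345 FPKM in wild-type cells. The markers with the largest differences were Nanog, at 150 FPKM in mutant and 114 FPKM in wild-type cells, and Sox2, at 222 and 178 FPKM in the same order, neither of them called. Of 8 fibroblast markers 1 reached 1 FPKM, Thy1, at 11.5 FPKM in mutant and 14.2 FPKM in wild-type cells, while Col3a1, Lum and Postn were listed at 0 in both. Markers of tissues rich in beta-oxidation were low. The 6 markers of liver and visceral endoderm summed to 0.119 FPKM in mutant and 0.24 FPKM in wild-type cells, with Alb, Ttr, Cyp7a1 and Serpina1a listed at 0 in both. The 6 muscle markers summed to 3.61 and 4.31 FPKM in the same order, and most of this was Tnni3, at 2.08 FPKM in mutant and 2.42 FPKM in wild-type cells. The 6 adipocyte markers summed to 0.468 FPKM in mutant and 1.18 FPKM in wild-type cells, and Plin1, Lep and Fabp4 were listed at 0 in both.

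Among the 10 enzymes 1 was called different, Acaa2, and it was lower in the mutant. Acaa2 encodes the mitochondrial ketoacyl-CoA thiolase that cleaves medium-chain and shorter substrates in the last step of a round. Its level was 23.3 FPKM in mutant cells and 35.1 FPKM in wild-type cells, so the mutant held 66.5% of the wild-type amount. The log2 fold change, mutant over wild type, was -0.59 with a q-value of 0.0179 in the authors' deposited table. The other 9 enzymes had log2 fold changes between -0.32 and 0.21 and q-values of at least 0.55 in that table. Of the 10766 genes that averaged at least 1 FPKM over the genotypes, 0.697% were called in either direction, 0.437% lower and 0.26% higher. With 1 value per genotype, differences of the uncalled enzymes cannot be set against a replicate spread, and in bulk RNA fewer cells of a type and less RNA per cell cannot be told apart.

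**Figure D1:**
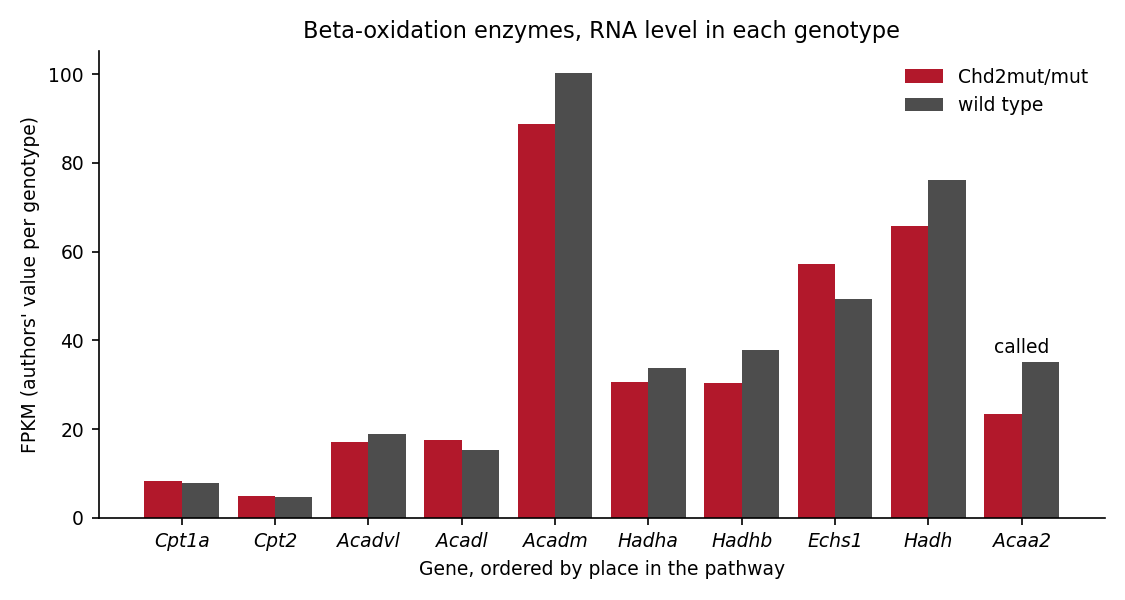
RNA level of the 10 beta-oxidation enzymes as bars of FPKM, the authors' value for Chd2mut/mut (red) and wild type (grey), in order of their place in the pathway. Acadm is the tallest pair at 88.8 FPKM in the mutant and 100.3 FPKM in wild type, and Acaa2 is the gene called, at 23.3 and 35.1 FPKM in the same order.

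The carnitine step had the lowest levels of the set. Cpt1a, which forms acylcarnitine at the outer mitochondrial membrane and is the step inhibited by malonyl-CoA, was at 8.198 FPKM in mutant cells and 7.95 FPKM in wild-type cells. Cpt2, which regenerates acyl-CoA on the matrix side, was at 4.91 FPKM in mutant cells and 4.66 FPKM in wild-type cells. Both had a q-value of 0.998 in the authors' deposited table. The ratio of Cpt1a to Cpt2, which does not depend on how the libraries were scaled against each other, was 1.67 in mutant cells and 1.70 in wild-type cells.

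The acyl-CoA dehydrogenases carry out the first oxidation of a round and divide the work by chain length. Acadm, the medium-chain enzyme, was the most abundant member in both genotypes, at 88.8 FPKM in mutant cells and 100.3 FPKM in wild-type cells, and ranked 1110 in mutant and 1025 in wild-type cells among the 10766 genes. Acadvl, the very-long-chain enzyme, was at 17.2 FPKM in mutant cells and 18.9 FPKM in wild-type cells. Acadl, the long-chain enzyme, was at 17.6 FPKM in mutant cells and 15.3 FPKM in wild-type cells. The medium-chain enzyme thus stood 5.16-fold above the very-long-chain enzyme in the mutant and 5.31-fold above it in wild type. The order of Acadl and Acadvl was exchanged between the genotypes, with a ratio of Acadl to Acadvl of 1.02 in mutant cells and 0.808 in wild-type cells. None of the 3 was called, with q-values from 0.941 to 0.994 in the authors' deposited table.

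Hadha and Hadhb encode the alpha and beta subunits of the trifunctional protein, which assembles from both and handles long-chain substrates at the inner membrane. Hadha, which holds the hydratase and hydroxyacyl-CoA dehydrogenase activities, was at 30.7 FPKM in mutant cells and 33.7 FPKM in wild-type cells. Hadhb, which holds the thiolase activity, was at 30.3 FPKM in mutant cells and 37.9 FPKM in wild-type cells. The ratio of Hadha to Hadhb was 1.01 in mutant cells and 0.888 in wild-type cells. Hadhb had the smallest q-value of the uncalled enzymes, 0.55 in the authors' deposited table, and Hadha had 0.981. Near-identical processed pseudogenes were found for Hadhb in the GENCODE M21 transcripts, Gm13910 with 99.8% identity over 1428 bases and Gm9108 with 97.6% over 1426 bases. Acadm has a less similar copy, Gm5131, with 93.5% identity over 681 bases. None of these copies is in the deposited table, and reads that match both a gene and its copy make its level less certain.

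The subunit genes lie head to head on chromosome 5 and share the stretch between their starts, which is why it is shown here. It runs between the outermost annotated starts, Hadha to the left on the minus strand and Hadhb to the right on the plus strand, and comes from RefSeq sequence of build GRCm38.p6, chr5:30155163-30155247, plus strand. This build differs from the mm9 build of the authors. Capitals mark GC boxes (GGGCGG on either strand), the motif bound by Sp-family factors, found 2 times in these 85 bases.
Hadha-Hadhb: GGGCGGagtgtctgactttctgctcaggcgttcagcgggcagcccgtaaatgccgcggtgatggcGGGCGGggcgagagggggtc

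Enzymes of the later steps for medium and short chains were abundant and differed in direction. Hadh, the hydroxyacyl-CoA dehydrogenase of medium and short chains, was at 65.7 FPKM in mutant cells and 76.2 FPKM in wild-type cells. Echs1, the short-chain enoyl-CoA hydratase, was at 57.1 FPKM in mutant cells and 49.3 FPKM in wild-type cells. The size of the log2 fold change was alike, -0.21 for Hadh and 0.21 for Echs1, both with a q-value of 0.877 in the authors' deposited table. The ratio of Hadh to Echs1 was 1.15 in mutant cells and 1.54 in wild-type cells. Echs1 overlaps Paox, a polyamine oxidase gene on the opposite strand, in RefSeq, and Paox was at 17.8 FPKM in mutant cells and 15.8 FPKM in wild-type cells. Whether counting used strand is not stated in the labels, so reads in the overlap may not be separable. Acadvl transcripts likewise share 256 bases with those of Dvl2, which was at 34.7 FPKM in mutant and 33.8 FPKM in wild-type cells.

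Acaa2 had the lowest log2 fold change of the 10 enzymes, so its ratio to any other of them had to be lower in the mutant. The ratios to 4 partners are given for their size only. The ratio of Acaa2 to Echs1 was 0.408 in mutant cells and 0.711 in wild-type cells. Against Acadm it was 0.263 in mutant and 0.35 in wild-type cells, and against Hadh it was 0.355 in mutant and 0.461 in wild-type cells. Against Hadhb, the thiolase subunit for long chains, it was 0.77 in mutant cells and 0.925 in wild-type cells. In the order of levels among the 10 enzymes Acaa2 ranked 6 in the mutant and 5 in wild type, and Hadha ranked 4 in the mutant and 6 in wild type. Acadm, Hadh and Echs1 led in that order in both genotypes, and Cpt1a and Cpt2 came last. The ratios share the Acaa2 value, so they are not separate pieces of evidence.

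**Figure D2:**
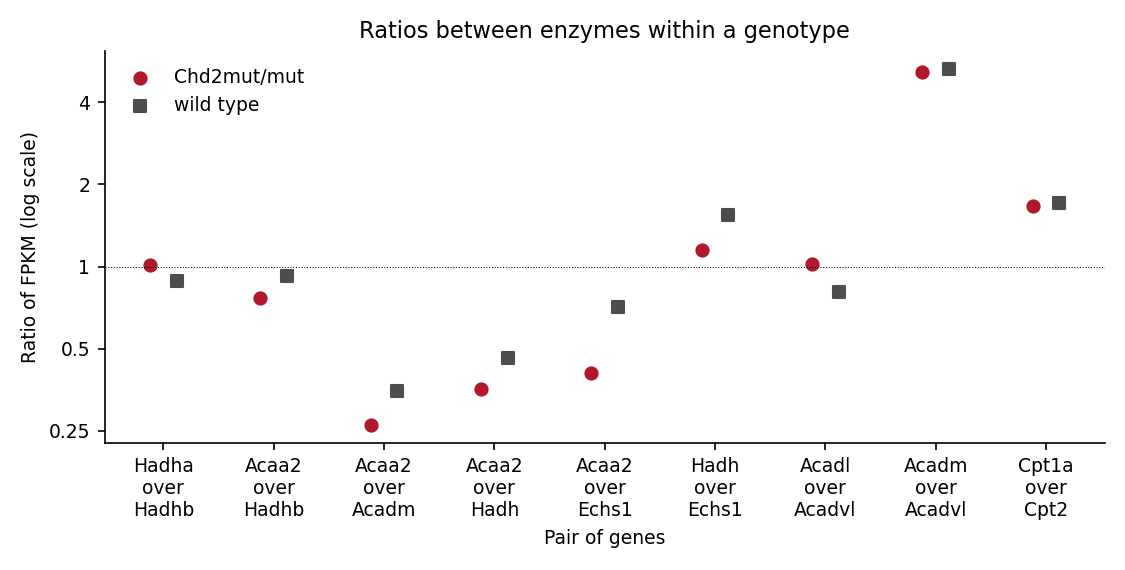
Ratios of FPKM between pairs of enzymes within a genotype on a log axis, Chd2mut/mut (red circles) left of wild type (grey squares), with the dotted line at 1. The ratios with Acaa2 on top, such as 0.408 against 0.711 over Echs1, lie lower in the mutant because Acaa2 has the lowest log2 fold change of the set. Cpt1a over Cpt2 lies at 1.67 in the mutant and 1.70 in wild type.

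Acaa2 lies on chromosome 18 in GRCm38 beside Scarna17, a small Cajal body RNA gene on the opposite strand that is its nearest neighbour on that side among genes of the deposited table. Scarna17 was listed at 0 FPKM in mutant cells and at 117 FPKM in wild-type cells, uncalled with a q-value of 1 in that table. RefSeq shows no overlap between them. Values of such short transcripts are unstable, and of 730 microRNA, small nucleolar and Cajal body RNA genes listed, 22 were at 0 in mutant cells and at 10 FPKM or more in wild-type cells, while 16 were at 10 FPKM or more in mutant cells and at 0 in wild-type cells. The part of Scarna17 in the Acaa2 difference was not tested. The remaining enzymes lie on chromosome 1 (Acadl), 3 (Acadm and Hadh), 4 (Cpt2), 5 (Hadha and Hadhb), 7 (Echs1), 11 (Acadvl) and 19 (Cpt1a) in GRCm38.

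Acaa2 was among the smallest changes that the authors called. By size of the fall it ranked 46 of the 47 genes called lower among the 10766, and 2 of all 75 genes called in either direction had a smaller absolute log2 fold change. By mean level it ranked 16 among the 75. Within 1.5-fold of its mean level of 29.2 FPKM lay 1671 genes, of which 12 were called, and 32 had an absolute log2 fold change at least as large as that of Acaa2, 20 of them uncalled. Within 1.5-fold of the level of Hadhb the smallest absolute log2 fold change called was 0.51, against 0.32 for Hadhb itself. A change of the size seen for any of the other 9 enzymes was smaller than the smallest one called anywhere among the 75 genes, which was 0.51. The threshold fell between a q-value of 0.0487, the largest one called, and 0.0531, the smallest one not called.

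**Figure D3:**
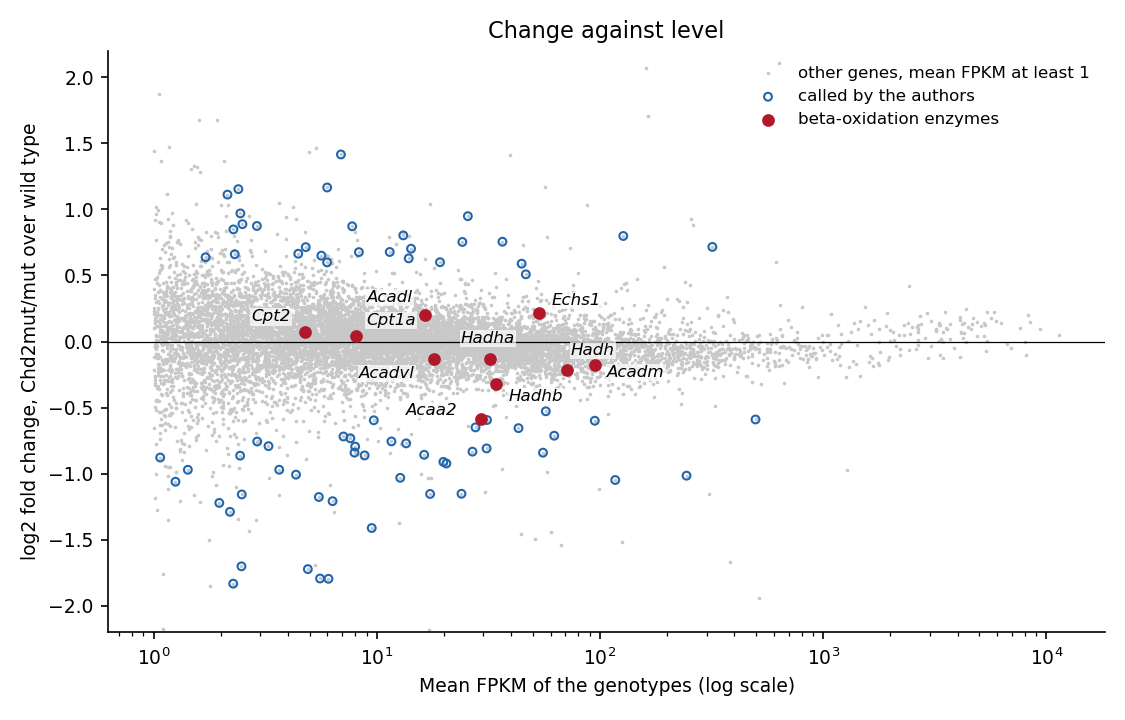
Log2 fold change of Chd2mut/mut over wild type from the authors' deposited table against mean FPKM of the genotypes on a log axis, for genes averaging at least 1 FPKM (grey), genes called by the authors (blue rings) and the 10 enzymes (red). Acaa2 at -0.59 lies at the inner edge of the called genes, and the other 9 enzymes lie between -0.32 and 0.21. Beyond the axis limits lie 12 genes, and 48 without a finite fold change are not drawn.

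On the scale of log2(FPKM + 1), mutant minus wild type, 6 of the 10 enzymes lay below 0 and 4 above. Their median difference was -0.13, against -0.0012 over all 10766 genes, of which 50.4% lay below 0. Without Acaa2 the median was -0.13 as well, with 5 of 9 enzymes below 0. The summed level of the 10 enzymes was 344 FPKM in mutant cells and 379 FPKM in wild-type cells, or 0.0425% of all FPKM in mutant and 0.0470% in wild-type cells. Genes at the level of the abundant enzymes also lay slightly below 0, with a median log2 fold change of -0.06 within 1.5-fold of Acadm and of -0.05 within 1.5-fold of Hadh. At the level of the carnitine enzymes, which lay above 0, the median was above 0 too. It was 0.03 within 1.5-fold of Cpt1a and 0.04 within 1.5-fold of Cpt2. Echs1 and Acadvl had the other sign than the median at their level. Echs1 had a log2 fold change of 0.21 against a median of -0.05, and Acadvl -0.13 against 0.0025. Acadl at 0.20 and Hadhb at -0.32 shared the sign, with medians of 0.0047 and -0.03. Hadha and Acaa2 shared it too, with medians of -0.02 each. The part of level in these differences was not tested.

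Promoter windows, 250 bases before to 50 after the start, were matched for 9 of the 10 enzymes, all but Acaa2, in the RefSeq table of build GRCm38.p6. A GC box lay in 7 of the 9, against 35.7% of all 32851 windows, and the TATA box TATAAA lay in none, against 13.6%. Hadha and Hadhb are both among the 7 and share the stretch shown above, so their windows are not separate. The GC content of the 9 windows ran from 50.7% for Acadvl to 70.3% for Acadl, with a median of 52.7% over all windows. Their number of CG pairs ran from 9 for Acadvl to 34 for Acadl, with a median of 7 over all windows. The part of this base composition in the GC box count was not tested. Nuclear receptors of the PPAR and ERR families, known regulators of these genes in oxidative tissues, bind elements built on the hexamer AGGTCA. That hexamer lay in 4 of the 9 windows, against 16.3% of all windows. The PPAR response element, a direct repeat of the hexamer with a free base between the copies, and the ERR response element TCAAGGTCA, which both contain the hexamer, were in none of the 9, against 0.0396% and 0.423% of all windows. The E-box CACGTG was also in none, against 7.15%, and the CCAAT box CCAAT was in 2, against 37.4%. Every motif was searched on both strands, and no match says only that these letters are not in the window. The stretches with the hexamer are shown because they are the places where these windows carry it. Each is written on the strand of its gene, with the hexamer in capitals as AGGTCA or as TGACCT on the other strand. They are Cpt1a at chr19:3323187-3323232 (plus strand), Acadvl at chr11:70015490-70015535, Acadm at chr3:153944867-153944893 and Echs1 at chr7:140116479-140116524 (all minus strand).
Cpt1a: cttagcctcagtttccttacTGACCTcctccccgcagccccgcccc
Acadvl: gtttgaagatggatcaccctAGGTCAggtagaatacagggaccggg
Acadm: gTGACCTtcgggctccggtgacactgg
Echs1: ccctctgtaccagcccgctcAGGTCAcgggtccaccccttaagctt
Of the 4 genes with the hexamer, Acadm and Acadvl lay below 0 and Cpt1a and Echs1 above 0 in the difference of log2(FPKM + 1). All 9 enzymes searched were uncalled, so the hexamer cannot be set against the call.

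Related genes were read from lists. Across 13 lists of fatty acid and mitochondrial acetyl-CoA metabolism, 174 genes were listed besides the 10 enzymes and 122 averaged 1 FPKM or more. None of the 122 was called, against 0.697% of all 10766 genes, a share at which a list of this length holds few calls or none, so the count says nothing particular about these genes. Their smallest q-value was 0.236 in the authors' deposited table, which gives no unadjusted p-values. Of the 122, 78 lay below 0 and 44 above, with a median difference of -0.05 on the log2(FPKM + 1) scale. The genes named below had the largest differences in their list, apart from some chosen with their values in view. These were Etfa, Acads, Acaa1a, Hacl1, Abcd4, Esrrb, Ppara, Ppard and Ppargc1a, and above Scarna17, Paox and Dvl2.

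Genes of electron transfer, the carnitine system and other mitochondrial acyl-CoA enzymes lay on either side of 0. Etfb, the beta subunit of the electron transfer flavoprotein that accepts electrons from acyl-CoA dehydrogenases, had the smallest q-value of the 122. It was at 93.3 FPKM in mutant cells and 124 FPKM in wild-type cells, with a log2 fold change of -0.41 and a q-value of 0.236 in the authors' deposited table. Its partner subunit Etfa was at 50.3 FPKM in mutant and 48.97 FPKM in wild-type cells, and the oxidoreductase Etfdh at 8.73 and 9.17 FPKM in the same order. Of 5 further carnitine genes kept, 4 lay below 0, and the carnitine-acylcarnitine translocase Slc25a20, which links Cpt1a to Cpt2 across the inner membrane, was at 17.1 FPKM in mutant cells and 21.5 FPKM in wild-type cells. Crat, the carnitine acetyltransferase, was at 0.891 FPKM in mutant cells and 1.36 FPKM in wild-type cells. Of 12 auxiliary mitochondrial enzymes 8 lay below 0. The enoyl-CoA isomerase Eci2 was at 6.49 FPKM in mutant and 8.498 FPKM in wild-type cells, and Pcca, a propionyl-CoA carboxylase subunit, at 2.78 FPKM in mutant and 1.90 FPKM in wild-type cells. Of 8 other acyl-CoA dehydrogenases 5 lay below 0, with Acad11 at 3.91 FPKM in mutant and 5.23 FPKM in wild-type cells and Acad10 at 1.94 and 1.49 FPKM in the same order. The short-chain enzyme Acads was at 42.3 FPKM in mutant and 47.0 FPKM in wild-type cells.

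Among the lists with 10 or more genes kept, those of the peroxisomal pathway and the citric acid cycle had the largest shares below 0. Over all 10766 genes 50.4% lay below 0. Of 13 genes kept on the peroxisomal beta-oxidation list 11 lay below 0, with a median difference of -0.18. The median was -0.11 with a pseudocount of 5 and -0.12 without the filter. The list is wider than beta-oxidation itself, since it also holds Phyh, Hacl1, Pecr and Abcd4. Of the 11, Hacl1 and Abcd4 lay close to 0, at -0.00029 and -0.019. Pecr, a trans-enoyl-CoA reductase, was at 13.6 FPKM in mutant cells and 17.97 FPKM in wild-type cells, and Phyh, the phytanoyl-CoA hydroxylase, at 22.4 and 26.8 FPKM in the same order. Acaa1a, the peroxisomal counterpart of the Acaa2 thiolase, stood at 30.2 FPKM in mutant cells and 32.1 FPKM in wild-type cells, with a q-value of 0.998 in the authors' deposited table. Of 22 citric acid cycle and pyruvate dehydrogenase genes 19 lay below 0, with a median difference of -0.11, which was -0.06 under quantile normalization. Many of them are abundant, and genes within 1.5-fold of the level of Acadm had a median log2 fold change of -0.06. The part of level in the difference of this list was not tested. Suclg1, the alpha subunit of succinyl-CoA ligase, was at 99.1 FPKM in mutant and 121 FPKM in wild-type cells, and Dlst, of the oxoglutarate dehydrogenase complex, at 32.9 and 39.97 FPKM in the same order.

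Lists upstream of the pathway were divided. Of 9 acyl-CoA synthetases 5 lay above 0, with a median of 0.15, which was 0.0159 without the filter on low values, 0.0571 at a mean of 5 FPKM or more and 0.0755 with a pseudocount of 5. Acsl6 was at 1.32 FPKM in mutant and 0.985 FPKM in wild-type cells and Acss1 at 2.53 and 2.05 FPKM in the same order. Of 10 genes of fatty acid uptake and binding 6 lay above 0. Its largest differences were below 0, those of the fatty acid binding protein Fabp5, at 14.7 FPKM in mutant and 18.8 FPKM in wild-type cells, and of the transporter Slc27a2, at 14.7 FPKM in mutant and 18.3 FPKM in wild-type cells. Of 6 acyl-CoA thioesterases 3 lay below 0, with Acot7 at 88.7 FPKM in mutant and 100.4 FPKM in wild-type cells and Them4 at 1.06 and 1.34 FPKM in the same order. Of 9 genes of malonyl-CoA and AMPK control, which acts on Cpt1a, 5 lay below 0, with Acaca, the cytosolic acetyl-CoA carboxylase, at 13.4 FPKM in mutant and 14.97 FPKM in wild-type cells and the kinase subunit Prkaa1 at 10.1 and 9.25 FPKM in the same order. Of 7 ketone body genes 5 lay below 0, with Oxct1 at 17.2 FPKM in mutant and 13.1 FPKM in wild-type cells and Bdh2 at 3.34 and 4.38 FPKM in the same order.

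Transcriptional regulators of the pathway lay on either side of 0, with a median near it. Of 15 genes of the PPAR and PGC-1 list that were kept, 8 lay above 0 and 7 below, with a median of 0.0071, which was 0.0391 under quantile normalization. Rxra, the heterodimer partner of PPARs, was at 2.58 FPKM in mutant cells and 3.34 FPKM in wild-type cells. The orphan receptor Esrra was at 9.82 FPKM in mutant and 8.39 FPKM in wild-type cells. The related Esrrb, also an embryonic stem cell marker above, was higher, at 97.6 FPKM in mutant and 87.7 FPKM in wild-type cells. Ppara, the main PPAR of liver and heart, was at 0.0719 FPKM in mutant cells and 0.0568 FPKM in wild-type cells, and the coactivator gene Ppargc1a was listed at 0 in both. Ppard was the PPAR gene expressed here, at 9.496 FPKM in mutant and 9.54 FPKM in wild-type cells. Of 17 PPAR target genes 6 were kept and 4 of these lay below 0, among them Slc25a20 as given above, while the uncoupling protein gene Ucp2 was at 25.5 FPKM in mutant and 21.3 FPKM in wild-type cells.

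**Figure D4:**
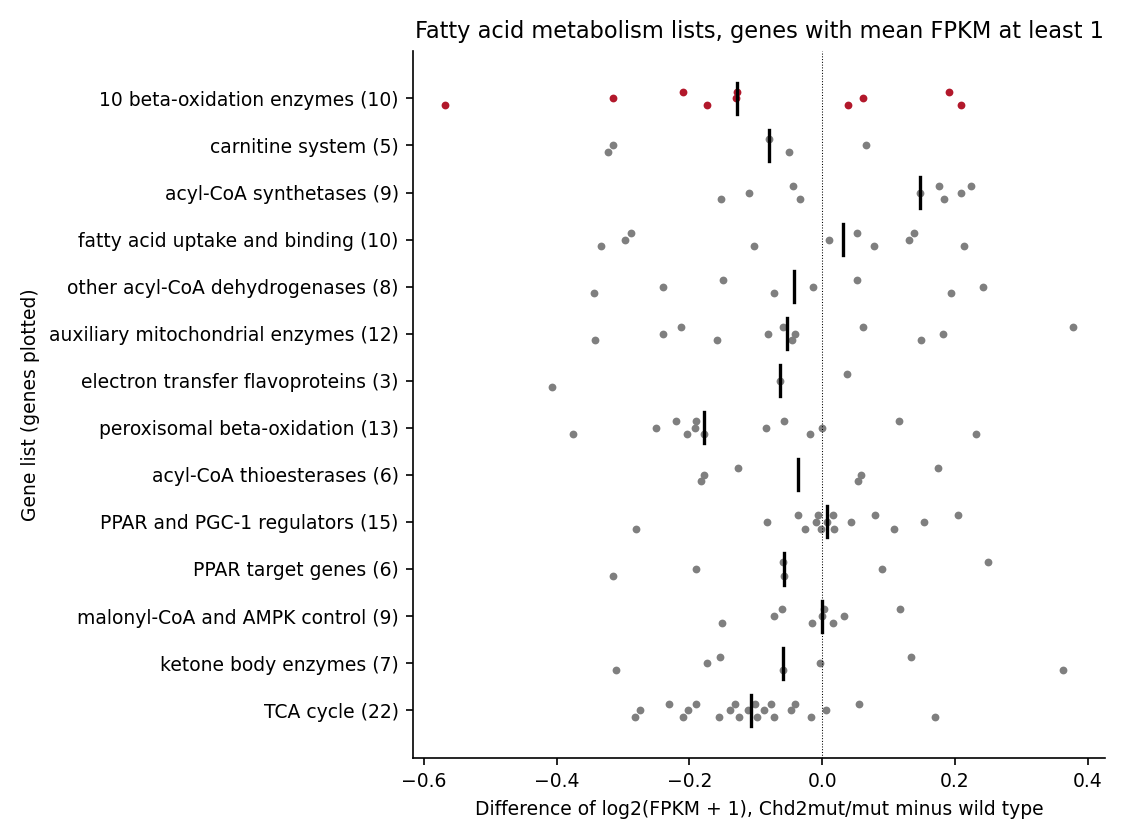
Difference of log2(FPKM + 1), Chd2mut/mut minus wild type, for each gene averaging at least 1 FPKM in the 10 enzymes (red) and 13 related lists (grey), with black bars at the medians. The lowest point is Acaa2 at -0.57, and the enzymes have a median of -0.13.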

How the data were processed

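RNA sequencing libraries of 2 genotypes, 2 per genotype, were used. The submitters' processing notes name build mm9 and the tools TopHat2 2.1.0, Cufflinks and bcl2fastq 2.17.1.14, while the version of Cufflinks, the annotation and the test are not stated there. The authors deposited 1 FPKM value per gene and genotype, without standard deviation, so depth is unknown. Per the file headers, the table also gives a log2 fold change (mutant over wild type), which is the plain ratio for the 10 enzymes, a q-value and a call, which equals a q-value under 0.05.

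Computed here were differences of log2(FPKM + 1), which understate changes of low genes, ratios, ranks and list counts over genes averaging at least 1 FPKM (pandas 2.3.3, numpy 2.4.6). Only the list medians, the counts of called genes and the quantile normalization were tested on simulated data, which held no noise. No test across libraries was possible. Promoter motifs were searched for the members other than Acaa2. Copies were sought with blastn 2.17.0 in GENCODE M21 transcripts (at least 90% identity over 100 bases). Members, lists and rules were chosen with earlier results of these data known. The naming rule takes Chd2, the members, and of each list the called genes or else the 2 largest differences; markers listed at 0 and the genes said to be picked with their values in view stand outside it.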

Additional observations from a re-analysis of the deposited data

How the results depend on the processing

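The median difference of the 10 enzymes stayed between -0.13 and -0.10 in the 8 settings tried (pseudocounts of 0.1 and 5, none, median of all genes set to 0, quantile normalization, 2 filters, and without Acaa2). The settings without a pseudocount and without Acaa2 were chosen after seeing the data. Acaa2 ran from -0.59 to -0.501. None of the 50 values of single enzymes changed sign, but most of them had no room to. Another pseudocount, or none, leaves the sign of a difference as it is. Centring took away a median of -0.0012, smaller in size than any enzyme difference, the smallest being 0.04 for Cpt1a. The signs were thus put to a test by the quantile-normalized values alone. The size moved by over 1.5 times in 4 of the 50. These were Cpt1a, Cpt2 and Acadm under quantile normalization and Cpt2 with a pseudocount of 5. Acaa2 was the 1 enzyme called at a q of at most 0.02 or 0.1 and at a mean of 5 FPKM or more. The q-values were not computed anew, so this followed from its deposited q-value of 0.0179 and mean of 29.2 FPKM. The other 9 enzymes had deposited q-values of at least 0.55. With a log2 fold change that also had to reach 1 in size, 0 enzymes were called. Over the whole table the 81 calls became 50 at 5 FPKM or more and 28 with that fold change, subsets by construction. Of 91 list medians 29 moved by over 1.5 times and 3 changed sign, those of the thioesterases (0.04) and PPAR targets (0.0036) without a filter, and of malonyl-CoA and AMPK control (0.00026) with the median set to 0. No paired analysis was possible because each genotype has 1 value per gene, and leaving out a lot was not run for the same reason.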

Other observations

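Cpt1b, the muscle-type carnitine palmitoyltransferase, averaged below 1 FPKM and was picked with its values in view. It was at 0.983 FPKM in mutant cells and 0.188 FPKM in wild-type cells, uncalled with a q-value of 0.941 in the authors' deposited table. Its neighbour Chkb, a choline kinase gene, was at 9.10 FPKM in mutant cells and 6.92 FPKM in wild-type cells, also uncalled, with a q-value of 0.663. RefSeq lists the noncoding Gm44502 across both genes. The brain-type Cpt1c, chosen likewise, was at 5.01 FPKM in mutant cells and 4.74 FPKM in wild-type cells.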
